A study of Mus musculus with 58 samples.

Results

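Heat shock proteins and chaperones were followed as 10 genes in macrophages and monocytes isolated from mouse liver: Hsp90aa1, Hsp90ab1, Hspa1a, Hspa1b, Hspa5, Hspa8, Hsph1, Dnajb1, Hspd1 and Hspe1. They were taken by name from the 25307 genes of the deposited table of normalized counts; the rule uses no measured value, but the list was drawn up with earlier results of these data known. All 10 were found, were above 0 in each of the 58 libraries, and passed the filter on low values (3 or more libraries with a normalized count of 10 or higher) in each fit. The mice were of strain 129SV. The libraries came from Kupffer cells (KC, 20 libraries), monocyte-derived macrophages (MoMF, 19 libraries) and monocytes (Mo, 19 libraries). Each cell type was taken from 5 groups of mice: Sham6w, controls with a sham operation read at 6 weeks; CBDL2w and CBDL6w, common bile duct ligation read at 2 weeks (onset of cholestatic injury) and at 6 weeks (advanced injury); DSS, acute colitis without ligation; and CBDL+DSS, advanced cholestatic injury with acute colitis added. The sources used here state no ages, sexes, doses or days of DSS, or sort gates. Each group of cell type and injury had 4 libraries, except Sham6w in MoMF and in Mo with 3 each. In 9 libraries the title joins replicate numbers, written here as in 1+2+5, and the series' design text says that some replicates had to be pooled. In Sham6w this leaves 1 library with a single number in MoMF (replicate 3) and 1 in Mo (replicate 4).

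Chaperones bind proteins that are not yet folded, or have lost their fold, and keep them from clumping. The cytosolic machinery is built on the Hsp70 proteins (Hspa8 in resting cells, Hspa1a and Hspa1b on demand), which need J-domain helpers such as Dnajb1 and exchange factors such as Hsph1, and on the Hsp90 pair (Hsp90aa1, the inducible form, and Hsp90ab1, the constitutive form), which completes the folding of kinases and receptors. Hspa5, also called BiP, is the Hsp70 of the endoplasmic reticulum, and Hspd1 with its lid Hspe1 forms the folding chamber of mitochondria. The heat shock factor HSF1 turns on most of the cytosolic and mitochondrial genes through repeats of the letters GAA and TTC, whereas Hspa5 is turned on by the unfolded protein response through another promoter element. Heat shock genes and immediate early genes are also known to be induced when tissue is digested and cells are sorted.

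Promoter letters of 4 members are shown because they hold the elements named above. RefSeq promoter windows on build GRCm38.p6 (250 bases before to 50 after each annotated start) were matched for 7 of the 10 members. For Hsp90aa1, Hsp90ab1 and Hspa8 none was matched. Capitals mark the motif found. In the Hspe1 stretch they mark overlapping 3-unit heat shock elements (GAANNTTCNNGAA, either strand), in Hspa5 the endoplasmic reticulum stress element (CCAAT, 9 free bases, CCACG), and in Hspa1a and Hspa1b a 2-unit element (GAANNTTC). Each is printed along the gene's own strand.
Hspe1, chr1:55088053-55088082, plus strand: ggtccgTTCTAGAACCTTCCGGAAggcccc
Hspa5, chr2:34772020-34772048, plus strand: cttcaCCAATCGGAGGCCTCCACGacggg
Hspa1a, chr17:34972157-34972276, minus strand: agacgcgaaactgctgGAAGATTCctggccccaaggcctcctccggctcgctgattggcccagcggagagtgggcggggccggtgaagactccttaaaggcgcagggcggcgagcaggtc
Hspa1b, chr17:34959239-34959358, minus strand: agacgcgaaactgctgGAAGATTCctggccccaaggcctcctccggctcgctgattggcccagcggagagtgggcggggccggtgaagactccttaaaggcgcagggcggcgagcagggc

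The Hspe1 match ended 71 bases before the Hspe1 start. Hspd1 and Hspe1 lie head to head on chromosome 1. The same letters lie on the other strand in the Hspd1 window 55087883-55088182, ending 126 bases before the start in that window. The other Hspd1 window, 55088194-55088493, holds the gene's outermost start (55088243) and had no match. Relative to that start the letters lie inside the gene. The 3-unit element was present in 198 of 32851 promoter windows of the same length (0.603%). Hspe1 and the first of the Hspd1 windows named held it before the start, and Hsph1 held it after the start. The stress element was in 39 windows (0.119%) and, among the members, in Hspa5 alone, 46 bases before the start. The GAANNTTC pair, which is part of the 3-unit element, was in 7.86% of windows and in Hspa1a, Hspa1b, Hspd1, Hspe1 and Hsph1. The TTCNNGAA pair was in 8.52% of windows and in Hspd1, Hspe1 and Hsph1. The upstream 250 bases of Hspa1a and Hspa1b differed at 3 positions, 1 of them in the stretch printed. A match is a description of letters, not a measured binding site.

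Recovered read totals ran from 228741 to 521954 per library in KC, from 118687 to 461071 in MoMF and from 235531 to 377725 in Mo. Clec4f and Ly6c2 followed the labels of KC and Mo. Clec4f, a Kupffer cell receptor, had a median normalized count of 171 in KC, 12.3 in MoMF and 8.81 in Mo, and Ly6c2, a monocyte marker, had 1.23, 7.58 and 118. The list fixed for MoMF (7 of 7 in the table) did not set MoMF apart. Its mean summed share in Sham6w was 0.489% in MoMF, 0.516% in KC and 0.589% in Mo. In each injury group that mean was higher in Mo than in MoMF. Of its genes, Cx3cr1 had a median of 249 in MoMF, 136 in KC and 130 in Mo, while Ccr2 and Csf1r were intermediate in MoMF. Kupffer cell markers held 0.0944% to 0.371% in MoMF Sham6w and 1.01% to 1.1% in KC Sham6w. Markers of other cell types differed between the groups. Of 14 liver endothelial markers fixed as a list, 13 were in the table. Their summed share in Mo was 0.225% to 0.417% in Sham6w and 0.157% to 0.316% in DSS, against 0.00971% to 0.0314% in the ligated groups, where Oit3 was at 0 in CBDL6w. In MoMF the endothelial share was 0.149% to 0.164% in DSS and 0.032% to 0.0616% in Sham6w, against 0.00974% to 0.049% in the ligated groups. B and plasma cell markers (7 of 7 in the table) held 0.0741% to 0.306% in MoMF Sham6w and 0.00377% to 0.0182% in ligated MoMF, where Ms4a1 was at 0. Ribosomal protein genes held 9.22% to 10.3% in Mo Sham6w and 12.1% to 17.4% in the other Mo groups, and 7.56% to 8.48% in KC Sham6w and 9.15% to 13.6% in the other KC groups. The part of these shifts in the member results was not tested. In such bulk samples fewer expressing cells and less RNA per cell cannot be told apart.

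Differences are given as log2 of the normalized count plus 1, first group minus second, with the standard error. They were tested with limma and p-values adjusted over all genes of a comparison (Benjamini-Hochberg, two-sided). In shares, medians and adjustments, all genes means those that passed the filter on low values. These were 6159 genes in KC, 6079 in MoMF and 6112 in Mo for comparisons of injuries. For cell types and for effects between them they were 7555. A gene is said to have risen or fallen where its adjusted p was under 0.05. The labels do not say whether libraries come from separate animals, so p-values describe the spread between these libraries, which may be partly technical. All comparisons with Sham6w in a cell type share the same Sham6w libraries. No sham group was read at 2 weeks, so for CBDL2w against Sham6w ligation and time cannot be told apart. The labels give no week for DSS or CBDL+DSS, so whether Sham6w matches them in time is not known. The comparison of CBDL+DSS with DSS was added after the data had been seen and uses no Sham6w library.

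Hsp90aa1 and Hsp90ab1 fell in MoMF and in Mo in each of the 3 ligated groups compared with Sham6w, by 0.93 to 1.72 on the log2 scale. Neither passed the test in KC in any comparison of injuries. Both also fell in MoMF and Mo when CBDL+DSS was compared with DSS.

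**Figure D1:**
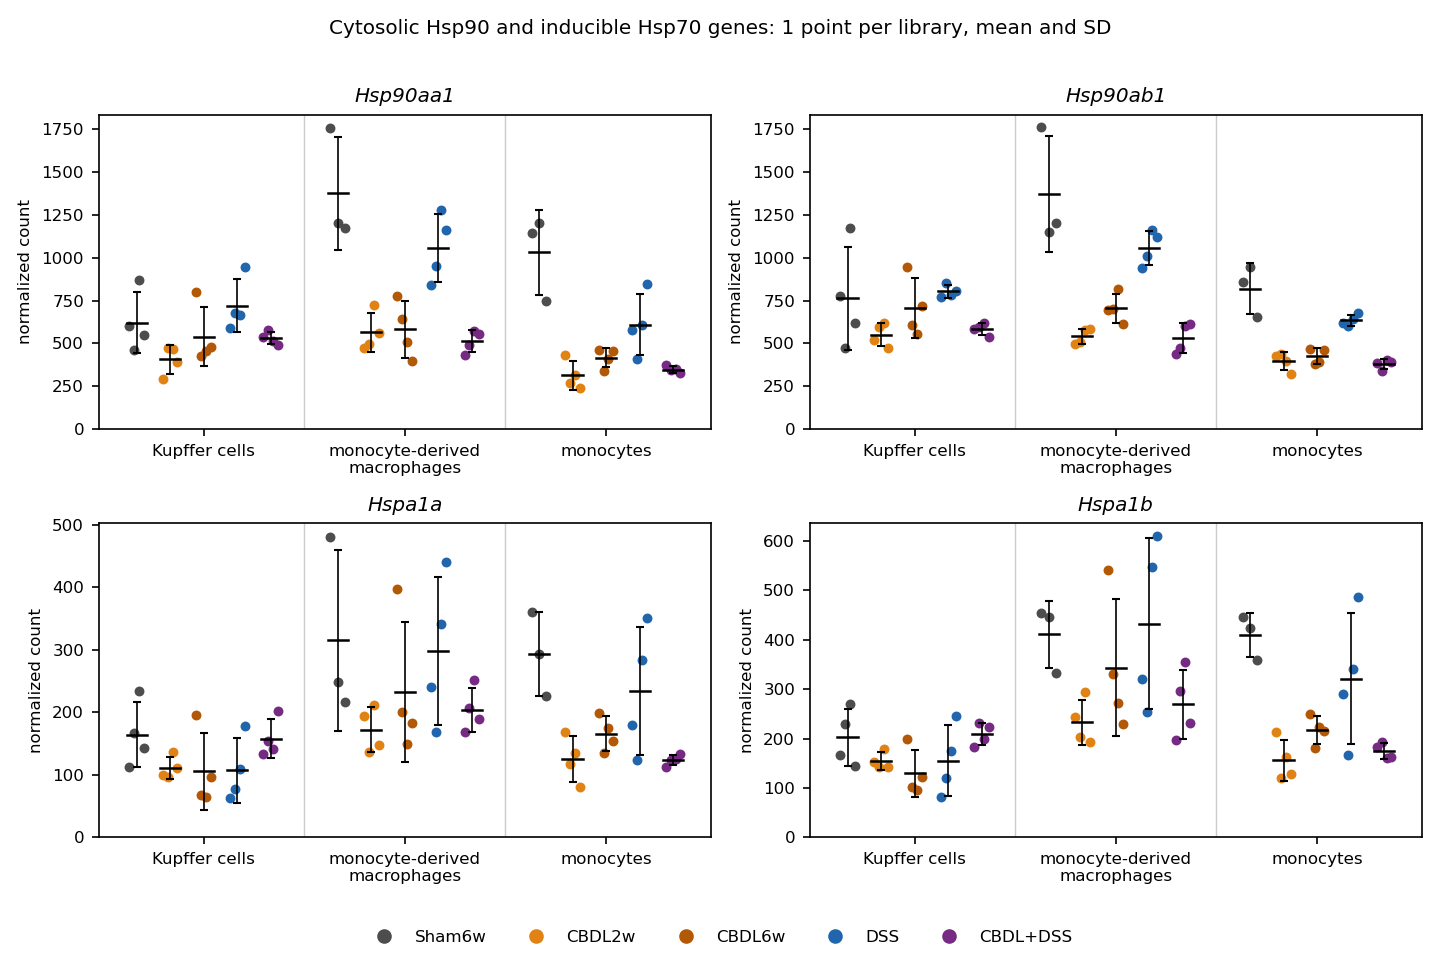
Normalized counts (y axis, linear from 0, with its own range in each panel) of Hsp90aa1, Hsp90ab1, Hspa1a and Hspa1b by cell type (x axis) and injury group (colour). Each point is 1 library, the horizontal line is the group mean and the error bar is the SD (3 or 4 libraries). Hsp90aa1 in MoMF lies at 1171 or more in the 3 Sham6w libraries and at 775 or less in the 12 ligated libraries, whereas the KC Sham6w libraries overlap every other KC group.

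In MoMF the 3 Sham6w libraries read 1758, 1200.3 and 1171 normalized counts of Hsp90aa1, and the 4 CBDL+DSS libraries read 435, 492, 573 and 558. The 4 CBDL2w libraries read 471, 496, 727 and 563, and the 4 CBDL6w libraries read 775, 645, 508 and 398. The Sham6w libraries were all above the ligated ones, and the highest was the pooled library 1+2+5. Hsp90aa1 fell by 1.28 ± 0.22 in CBDL2w (adjusted p = 0.00186, limma), by 1.26 ± 0.22 in CBDL6w (adjusted p = 0.00358, limma) and by 1.40 ± 0.22 in CBDL+DSS (adjusted p = 0.000317, limma). DSS, at 839.5, 954, 1279.7 and 1163, overlapped Sham6w, with a difference of -0.37 ± 0.22 (adjusted p = 0.399, limma).

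Hsp90ab1 in MoMF followed the same order. It read 1763, 1151 and 1204 in Sham6w and 441, 473, 604 and 614 in CBDL+DSS, with no overlap. It fell by 1.32 ± 0.18 in CBDL2w (adjusted p = 0.000124, limma), by 0.94 ± 0.18 in CBDL6w (adjusted p = 0.00645, limma) and by 1.35 ± 0.18 in CBDL+DSS (adjusted p = 5.15e-05, limma). Without any 1 library these 6 MoMF calls stayed past the threshold.

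In Mo the Sham6w libraries read 1143, 1205 and 747 of Hsp90aa1, and the CBDL2w libraries read 435, 269, 315 and 239.6. The lowest Sham6w library, replicate 4, still lay above every ligated Mo library, the highest of which read 462. Hsp90aa1 fell by 1.72, 1.28 and 1.54 in CBDL2w, CBDL6w and CBDL+DSS. Hsp90ab1 read 858, 948 and 654 in Sham6w and between 322 and 469 in the 12 ligated libraries. It fell by 1.04 in CBDL2w, 0.93 in CBDL6w and 1.10 in CBDL+DSS, again without overlap. All 6 Mo calls stayed past the threshold without any 1 library. DSS in Mo differed from Sham6w by -0.77 ± 0.22 for Hsp90aa1 (adjusted p = 0.0663, limma), and without Mo Sham6w replicate 4 by -0.99 (adjusted p = 0.0343, limma).

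These 12 calls rest on few controls. When only libraries with a single replicate number were used, which leaves 1 Sham6w library in each of the cell types and takes its spread from the other groups, 3 of the 12 stayed past the threshold: Hsp90ab1 in MoMF CBDL2w and CBDL+DSS, and Hsp90aa1 in Mo CBDL2w. The endothelial share of counts was lower in ligated Mo than in Mo Sham6w, with no overlap, and the B cell share likewise in MoMF. Other marker lists also moved without overlap between Sham6w and the ligated groups. In Mo, B and plasma cell markers held 0.0383% to 0.0869% in Sham6w and 0.00212% to 0.0266% with ligation. Markers of plasmacytoid dendritic cells (4 of 4 in the table) held 0.0308% to 0.0645% in Mo Sham6w and 0.000725% to 0.00586% in ligated Mo, with Ccr9 at 0 in CBDL6w, and 0.011% to 0.0207% and 0.00314% to 0.0104% in MoMF. T and NK cell markers (7 of 8 in the table) were lower in ligated Mo by a narrow margin, at 0.0025% or less against 0.00253% or more. In MoMF, cycling cell markers (6 of 6) were lower with ligation, at 0.00492% to 0.0146% against 0.0191% to 0.0371%. Cholangiocyte markers (4 of 5 in the table) were higher in ligated MoMF, at 0.00912% to 0.0722% against 0.0% to 0.00306%, with Sox9 and Krt7 at 0 in MoMF Sham6w. Monocyte markers were higher with ligation in MoMF (0.199% to 0.405% against 0.124% to 0.174%) and in Mo (0.524% to 0.649% against 0.311% to 0.512%), and markers of monocyte-derived macrophages in Mo (0.783% to 0.953% against 0.496% to 0.695%). The part of these lists in the result was not tested.

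Both genes also fell from DSS to CBDL+DSS, by 1.03 and 1.00 in MoMF and by 0.76 and 0.75 in Mo. In MoMF Hsp90aa1 fell by 1.03 ± 0.21 (adjusted p = 0.00262, limma) and Hsp90ab1 by 1.00 ± 0.17 (adjusted p = 0.000501, limma). The 4 DSS libraries were above all 4 CBDL+DSS libraries for both genes. In Mo Hsp90ab1 read 619, 601, 645 and 677 in DSS and 385, 337, 401 and 393 in CBDL+DSS, and fell by 0.75 ± 0.13 (adjusted p = 0.00118, limma). Those 3 calls held under all settings tried and without each library. Hsp90aa1 in Mo fell by 0.76 ± 0.20 (adjusted p = 0.0247, limma), but not when any 1 of 6 libraries was left out: Mo CBDL+DSS replicates 2, 4+5 and 6 gave adjusted p = 0.059, 0.0522 and 0.0626, and Mo DSS replicates 1, 3 and 4 gave 0.0529, 0.0522 and 0.108 (limma). The endothelial and plasmacytoid shares were again higher in DSS than in CBDL+DSS in both cell types, and the cholangiocyte share lower, at 0.000325% to 0.00158% against 0.0291% to 0.0473% in MoMF and 0.000317% to 0.00297% against 0.0189% to 0.0312% in Mo. In MoMF the T and NK cell share was 0.0171% to 0.0497% in DSS and 0.000553% to 0.00208% in CBDL+DSS. B and plasma cell markers held 0.0172% to 0.0743% and 0.00377% to 0.0109% there. Hepatocyte markers (10 of 10 in the table) held 0.00821% to 0.0143% and 0.0268% to 0.0424%. The list for monocyte-derived macrophages was lower in DSS, at 0.431% to 0.48% against 0.697% to 0.86% in MoMF. In Mo it held 0.58% to 0.732% and 0.819% to 0.937%. Kupffer cell markers held 0.0454% to 0.0818% in MoMF DSS and 0.11% to 0.215% in MoMF CBDL+DSS. Genes of the mitochondrial genome held 2.0% to 2.65% in DSS and 4.61% to 5.48% in CBDL+DSS in MoMF. In Mo they held 2.97% to 3.54% and 3.78% to 4.39%. The part of these shares in these falls was not tested.

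In KC the Sham6w libraries overlapped those of every other group for both Hsp90 genes. Hsp90aa1 read 599, 462, 873 and 549 in Sham6w, 292, 476, 470.2 and 391 in CBDL2w, and 591, 679, 667 and 945 in DSS. The Hsp90aa1 difference with the lowest adjusted p was -0.59 ± 0.21 in CBDL2w against Sham6w (adjusted p = 0.138, limma). Hsp90ab1 differed from Sham6w by -0.39 to 0.16 in KC. The 4 KC DSS libraries lay above the 4 KC CBDL+DSS libraries for both genes, and the differences of -0.42 for Hsp90aa1 (adjusted p = 0.252, limma) and -0.46 for Hsp90ab1 (adjusted p = 0.178, limma) did not pass.

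The difference between cell types was tested as such. The CBDL+DSS effect on Hsp90aa1 was higher in KC than in MoMF by 1.21 ± 0.32 (adjusted p = 0.0249, limma) and higher than in Mo by 1.35 ± 0.32 (adjusted p = 0.0197, limma). For Hsp90ab1 the KC effect exceeded that in MoMF by 1.05 ± 0.25 (adjusted p = 0.0112, limma). The CBDL2w effect on Hsp90aa1 was higher in KC than in Mo by 1.12 (adjusted p = 0.0482, limma), and the CBDL6w effect on Hsp90ab1 by 0.88 (adjusted p = 0.0488, limma). Of all genes, 1.99% passed for the CBDL+DSS effect between KC and MoMF, 0.821% for CBDL+DSS between KC and Mo, 1.67% for CBDL2w and 1.58% for CBDL6w between KC and Mo. The member counts in these comparisons were 2, 1, 1 and 1 of 10. In the other 11 of the 15 comparisons of effects the shares of all genes were 0.344% for CBDL2w and 0.397% for CBDL6w between KC and MoMF, 1.38%, 0.649% and 2.12% for CBDL2w, CBDL6w and CBDL+DSS between MoMF and Mo, and 0.86%, 0.238% and 0.0397% for DSS between KC and MoMF, KC and Mo, and MoMF and Mo. For CBDL+DSS against CBDL6w they were 0.45%, 0.0% and 0.119% in the same order. In these 11 no member passed with limma or edgeR, with up to 5 of 10 at an unadjusted p under 0.05 and 2 with DESeq2, both for the DSS effect between KC and Mo.

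Without the pooled MoMF Sham6w library 1+2+5 the CBDL+DSS difference between KC and MoMF gave adjusted p = 0.138 for Hsp90aa1 and 0.0886 for Hsp90ab1 (limma), so that 0 of 10 members passed. For Hsp90aa1 it was also lost without KC CBDL+DSS replicate 2 (0.0514), KC Sham6w replicates 2 (0.0784) and 4 (0.0525), or MoMF CBDL+DSS replicate 1 (0.0566). Between KC and Mo the CBDL+DSS difference was lost without KC Sham6w replicate 2 (0.0554) or the Mo Sham6w libraries 1+2+5 (0.0736) and 3+6 (0.085). The CBDL2w difference was lost without any of 11 libraries: KC CBDL2w replicates 2, 3 and 4, KC Sham6w replicates 1, 2 and 4, Mo CBDL2w replicates 2, 3 and 4, and Mo Sham6w 1+2+5 and 3+6, with adjusted p from 0.0718 to 0.193. The CBDL6w difference was lost without any of 12: KC CBDL6w replicates 1, 2 and 4, KC Sham6w replicates 1, 2 and 4, all 4 Mo CBDL6w replicates, and Mo Sham6w 1+2+5 and 3+6, with adjusted p from 0.0518 to 0.185. KC Sham6w replicate 3 was the highest KC control for both genes, at 873 and 1176. Without it, the effects of CBDL2w and CBDL6w on Hsp90ab1 also differed between KC and MoMF, by 1.16 (adjusted p = 0.0084, limma) and 1.12 (adjusted p = 0.0119, limma). Both also passed without MoMF Sham6w 3 (adjusted p = 0.0327 and 0.0309, limma) or 4+6 (0.0499 and 0.0388), and the CBDL6w one without KC CBDL6w 3 (0.04). Between KC and Mo, leaving out KC Sham6w replicate 3 brought the number of members from 1 to 2 for CBDL2w, CBDL6w and CBDL+DSS, as did leaving out Mo Sham6w 4 for CBDL6w. All 5 called differences were lost when only libraries with a single replicate number were used.

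**Figure D2:**
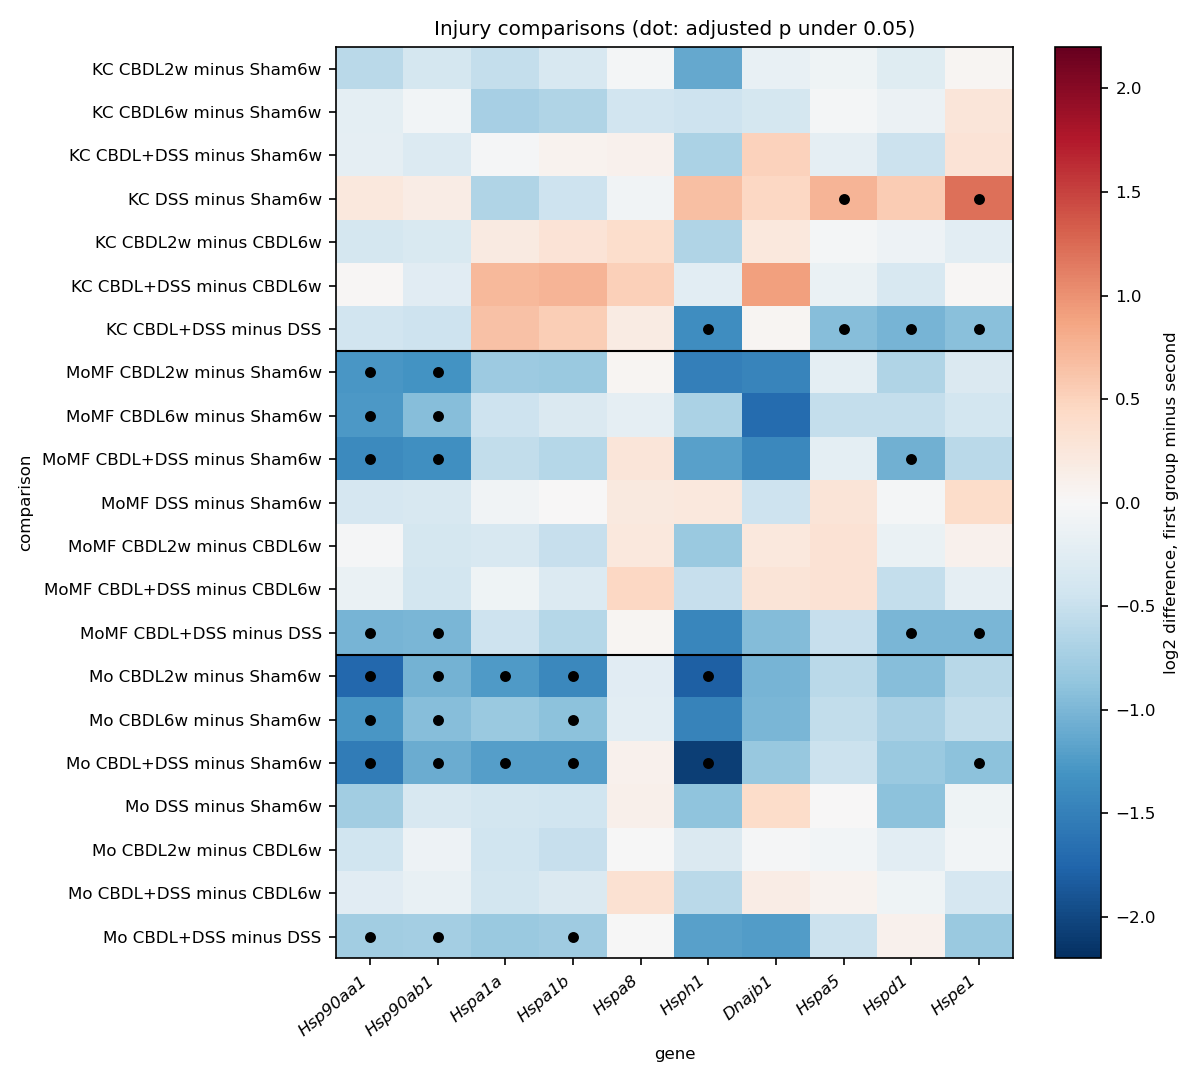
Log2 differences of the 10 members (x axis) in 7 injury comparisons in each of 3 cell types (y axis), in colour from blue (lower in the first group) to red (higher); a dot marks an adjusted p under 0.05. All dots in MoMF and Mo are on falls, and the 2 dots on rises are Hspa5 and Hspe1 in KC for DSS against Sham6w.

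Of the inducible Hsp70 pair, Hspa1b fell in Mo in all 3 ligated groups and Hspa1a in CBDL2w and CBDL+DSS. Hspa1a and Hspa1b encode nearly the same protein, and a read can be credited to the wrong copy, so each is uncertain on its own and their sum is given beside them. The last 500 bases of their transcripts, where 3′ reads fall, shared no 50-base word with another gene. Gm20481 overlaps Hspa1a on the other strand. The kit keeps strand, but the sources used here do not state the strand setting of the counting. Their summed count in Mo was 804, 716 and 585 in Sham6w. It was 380.5, 238, 298 and 209 in CBDL2w, 448, 316, 399 and 369 in CBDL6w, and 296, 317, 286 and 295 in CBDL+DSS. Every Sham6w library lay above every ligated one.

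Hspa1b fell in Mo by 1.41 in CBDL2w, by 0.91 in CBDL6w and by 1.22 in CBDL+DSS, and Hspa1a fell by 1.24 in CBDL2w and 1.21 in CBDL+DSS. The CBDL6w fall of Hspa1b was lost without Mo CBDL6w replicate 2 (adjusted p = 0.0537, limma), Mo Sham6w 1+2+5 (0.0736) or 3+6 (0.0716). Hspa1a in CBDL6w did not pass, but did without Mo Sham6w replicate 4 (-0.98, adjusted p = 0.0499, limma). None of these 5 calls stayed when only libraries with a single replicate number were used.

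Libraries of the DSS groups spread widely for this pair. The summed count was 144, 198, 285 and 424 in KC replicates 1 to 4, 561, 421, 887 and 1049 in MoMF replicates 1, 2, 3 and 5+6, and 469, 290.5, 624 and 837 in Mo replicates 1 to 4. Replicates 1 and 2 were lower than the other libraries in each cell type. The labels do not say what a shared number marks. Against DSS, Hspa1b in Mo CBDL+DSS fell by 0.78 ± 0.23 (adjusted p = 0.0485, limma). That call was lost without any 1 of 7 of the 8 libraries, all but Mo DSS replicate 2, with adjusted p from 0.0744 to 0.191. Without Mo DSS replicate 2, Hspa1a passed too, at -1.08 (adjusted p = 0.0089, limma).

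In KC the summed pair was 279, 396, 504 and 288 in Sham6w and 394, 169, 159 and 219 in CBDL6w, and no injury comparison passed. The colitis effect with ligation minus that without was 1.38 ± 0.44 for Hspa1a (adjusted p = 0.0665, limma) and 1.2 ± 0.38 for Hspa1b (adjusted p = 0.0612, limma). Both passed without KC CBDL6w replicate 1 (adjusted p = 0.011 and 0.0214, limma) or without KC DSS replicate 4 (0.022 and 0.0174).

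Hsph1, the exchange factor, and Dnajb1, the J-domain helper, had lower counts and wider spread. Hsph1 read 22.3, 47.1 and 20.1 in Mo Sham6w, 9.84, 18.9, 5.28 and 2.54 in CBDL2w, and 3.15, 4.09, 11.6 and 7.23 in CBDL+DSS. The groups did not overlap. Hsph1 fell by 1.79 ± 0.58 in CBDL2w (adjusted p = 0.0429, limma) and by 2.07 ± 0.58 in CBDL+DSS (adjusted p = 0.0227, limma). The CBDL2w fall was lost without any of 5 libraries (Mo CBDL2w replicates 3 and 4, and each Mo Sham6w library, adjusted p from 0.0536 to 0.205). The CBDL+DSS fall was lost without Mo CBDL+DSS replicate 1 (0.0538) or 2 (0.0606), or without Mo Sham6w 3+6 (0.119). Both were lost with the replicate number as a block and with single replicate numbers only. The CBDL2w fall was also lost with edgeR or with no filter on low values. In MoMF, Hsph1 in CBDL2w passed only without Sham6w 1+2+5 (-2.2, adjusted p = 0.0471, limma).

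In KC, Hsph1 read 32.2, 41.3, 20.1 and 32.7 in DSS and 8.36, 9.97, 20.2 and 9.55 in CBDL+DSS, and fell by 1.36 ± 0.42 (adjusted p = 0.0469, limma). The highest CBDL+DSS library, 4+5, (20.2) lay level with the lowest DSS library, replicate 3 (20.1). The call was lost without KC CBDL+DSS 1+3, 2 or 6, or KC DSS replicate 1, 2 or 4 (adjusted p from 0.0938 to 0.131). It was also lost with no filter on low values, with the replicate number as a block, and with single replicate numbers only.

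Dnajb1 passed in no comparison of injuries. In MoMF it read 104, 77.1 and 61.9 in Sham6w, 18.3, 32.1, 33.3 and 31.9 in CBDL2w, and 32.2, 31.9, 33.2 and 20.9 in CBDL+DSS. Those groups did not overlap, yet the differences of -1.46 ± 0.48 and -1.42 ± 0.48 gave adjusted p = 0.0974 and 0.0632 (limma). CBDL6w gave -1.70 ± 0.48 (adjusted p = 0.0812, limma) and passed without MoMF CBDL6w replicate 1 (-2.05, adjusted p = 0.0456, limma). In Mo the difference between CBDL+DSS and DSS was -1.23 ± 0.39 (adjusted p = 0.0664, limma), and -1.47 without Mo CBDL+DSS replicate 6 (adjusted p = 0.0455, limma).

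Hspa8, the constitutive Hsp70, passed in no comparison of any kind. It ran from 214.4 to 529 over the 58 libraries, and its share of variance between the 15 groups was the lowest of the members, 42.9% against 84.5% for Hsp90ab1. Its differences between injuries ran from -0.42 ± 0.19 (KC CBDL6w against Sham6w) to 0.52 ± 0.19 (KC CBDL+DSS against CBDL6w). In MoMF the CBDL+DSS difference from Sham6w was 0.26 ± 0.22 (adjusted p = 0.496, limma), but it passed at 0.62 (adjusted p = 0.0331, limma) without Sham6w replicate 3, which read 529 against 238 and 263. Of the 50-base words in the last 500 bases of its transcript, 81.8% also occur in other genes, 11 of them, so its count is uncertain. The values for Hspe1 and Hsp90ab1 are 53.2% (6 genes) and 7.8% (1 gene).

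**Figure D3:**
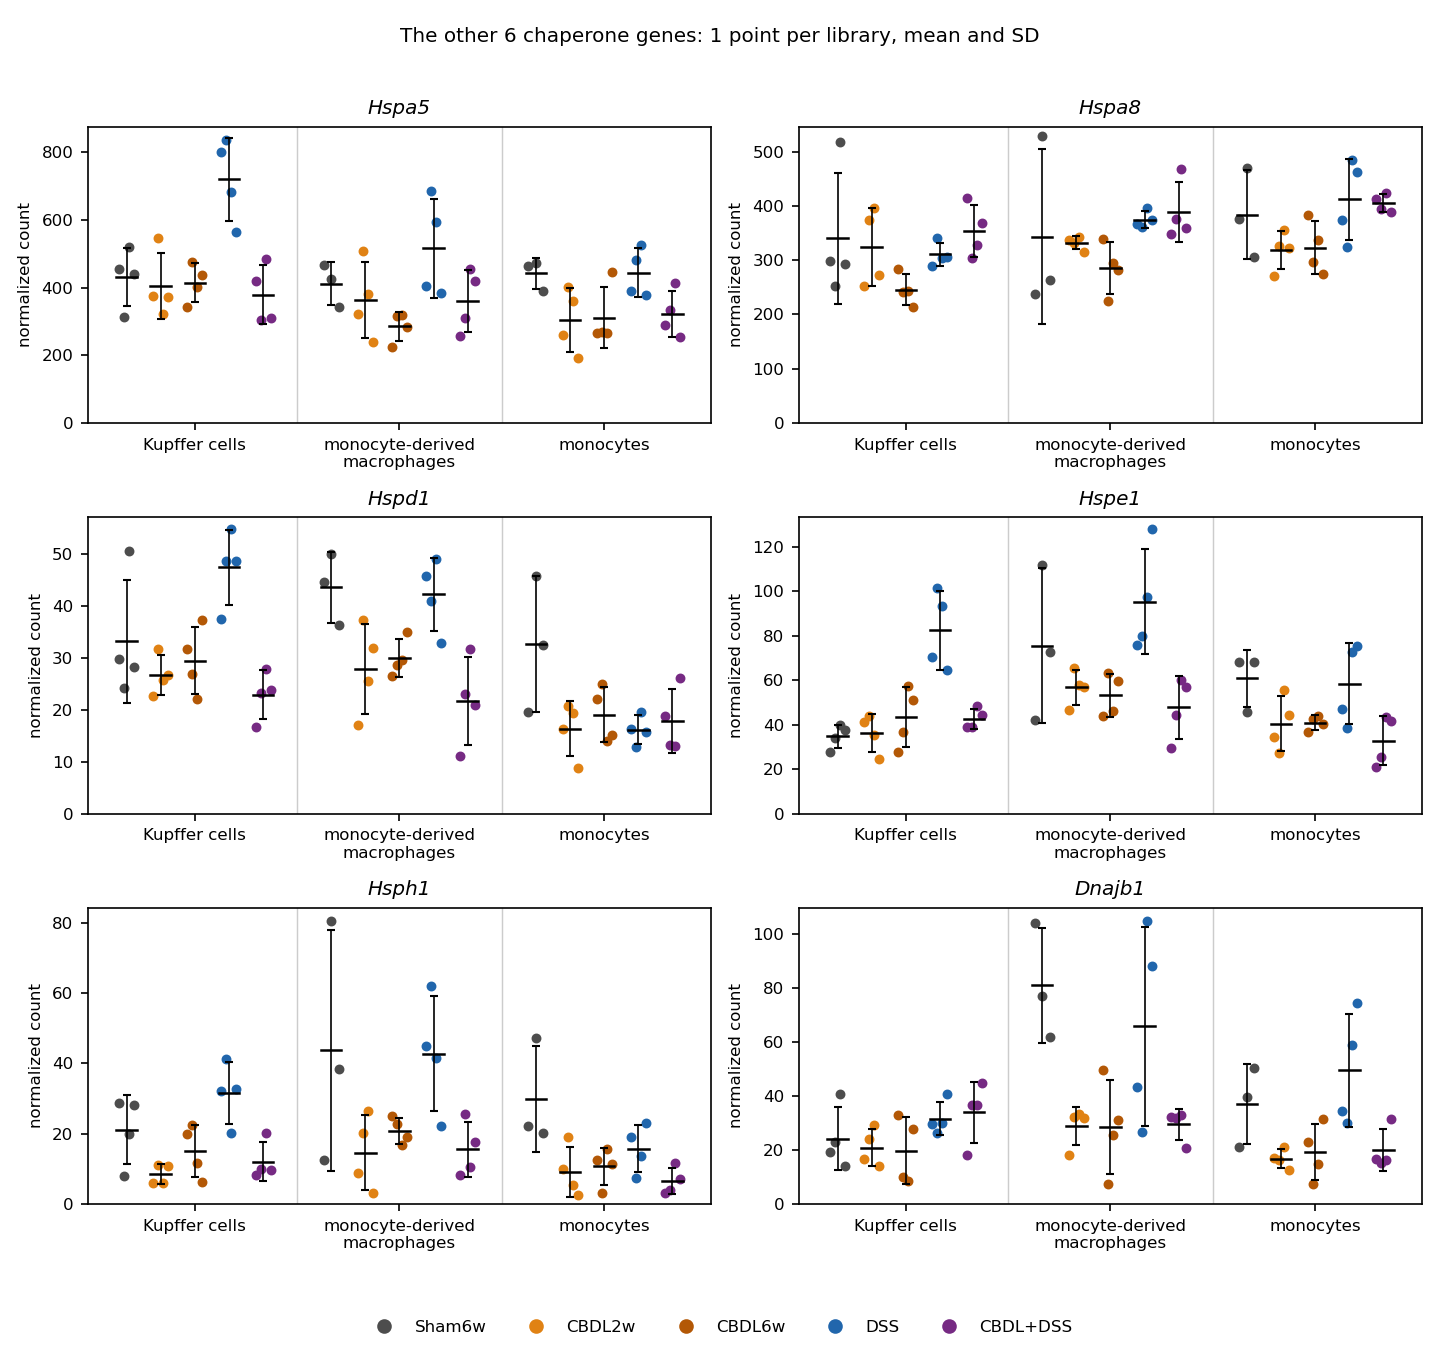
Normalized counts (y axis, linear from 0, with its own range in each panel) of Hspa5, Hspa8, Hspd1, Hspe1, Hsph1 and Dnajb1 by cell type (x axis) and injury group (colour). Each point is 1 library, the horizontal line is the group mean and the error bar is the SD. Hspe1 in KC lies between 64.5 and 101.3 in DSS and at 39.7 or less in Sham6w, and Hspa8 lies between 214.4 and 529 in all libraries.

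In KC of mice with colitis alone, the mitochondrial lid Hspe1 and the endoplasmic reticulum chaperone Hspa5 rose, the only rises of members between injuries. In KC of mice with colitis and ligation, Hspa5, Hspd1, Hspe1 and Hsph1 were lower than with colitis alone.

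Hspe1 read 27.7, 34.0, 39.7 and 37.4 in KC Sham6w and 70.6, 101.3, 93.3 and 64.5 in KC DSS, so that each DSS library was above each control. It rose by 1.21 ± 0.24 (adjusted p = 0.00377, limma), and this call held under all settings tried and without each library. The effect of DSS on Hspe1 was not shown to differ from that in MoMF (0.81, adjusted p = 0.358, limma) or Mo (1.3, adjusted p = 0.155, limma). In CBDL+DSS it read 39.0, 39.1, 48.2 and 44.2 and fell by 0.92 ± 0.24 against DSS (adjusted p = 0.0192, limma). That fall was lost without KC CBDL+DSS replicate 2 (adjusted p = 0.0563, limma) or KC DSS replicate 2 (0.0732) or 3 (0.052). It was also lost with no filter on low values, with the replicate number as a block, and with single replicate numbers only. The colitis effect on Hspe1 was smaller with ligation than without by 1.19 on the log2 scale (log2 -1.19 ± 0.34, adjusted p = 0.0374, limma). It was lost without any of 10 of the 16 libraries (KC CBDL+DSS 1+3, 2 and 6, KC CBDL6w 3 and 4, KC DSS 2 and 3, and KC Sham6w 1, 2 and 4), with adjusted p from 0.0528 to 0.0811. No filter on low values, the replicate number as a block, and single replicate numbers only also ended it.

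Hspd1, the mitochondrial chamber, read 29.8, 24.3, 50.6 and 28.2 in KC Sham6w, 37.5, 48.8, 54.9 and 48.6 in DSS, and 16.7, 23.3, 28.0 and 23.9 in CBDL+DSS. DSS overlapped Sham6w through replicate 3 of the controls, and differed by 0.55 ± 0.25 (adjusted p = 0.183, limma). CBDL+DSS lay below DSS in every library, and Hspd1 fell by 1.03 ± 0.25 (adjusted p = 0.0123, limma). The call held without each library. It was lost with no filter on low values, with the replicate number as a block, and with single replicate numbers only.

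Hspa5 read 455, 315, 519 and 439.9 in KC Sham6w, 800.1, 837, 682 and 565 in DSS, and 419, 306, 484 and 309.8 in CBDL+DSS. DSS libraries were above all others of both groups. Hspa5 rose in DSS by 0.74 ± 0.19 (adjusted p = 0.02, limma), but not without KC DSS replicate 1 (adjusted p = 0.0511) or 2 (0.0717), or KC Sham6w replicate 2 (0.0912). It fell from DSS to CBDL+DSS by 0.93 ± 0.19 (adjusted p = 0.00369, limma). That call held without each library, but not with the replicate number as a block. The colitis effect differed with ligation by -0.89 ± 0.27 (adjusted p = 0.0515, limma), and it passed without KC CBDL+DSS 4+5 (0.0335), KC CBDL6w 1 (0.0355), KC DSS 4 (0.036) or KC Sham6w 3 (0.0435).

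Other genes of the endoplasmic reticulum and the unfolded protein response were counted from a list. Of 32 such genes, 31 were in the table and 23 were tested in KC. In DSS against Sham6w, 5 of the 23 rose and none fell (7.89% of all genes passed, in either direction), and the median difference was 0.66 against -0.066 over all genes. They were Pdia4 (1.72 ± 0.42), Hyou1 (1.10 ± 0.32), Pdia3 (0.66 ± 0.19), P4hb (0.75 ± 0.23) and, named after its values were seen, Sel1l (0.76 ± 0.24). Their adjusted p was 0.0164, 0.0386, 0.0402, 0.0493 and 0.0495 (limma), the last 2 close to the threshold. Libraries overlapped for Sel1l (44.8 in Sham6w replicate 4, 36.7 in DSS replicate 4) and Pdia3 (81.4 in Sham6w replicate 3, 80.4 in DSS replicate 4). List genes were not refitted without single libraries. Pdia3, Pdia4 and P4hb are disulfide isomerases of that organelle, Hyou1 is an exchange factor of Hspa5, and Sel1l works in the disposal of misfolded proteins. Pdia4 read 4.87 ± 2.9 (SD, n = 4) normalized counts in Sham6w and 16.5 ± 3.6 (SD, n = 4) in DSS.

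From DSS to CBDL+DSS, 8 of the 23 fell and none rose (7.44% of all genes passed), with a median of -0.43 against 0.057 over all genes. The 4 of them with the smallest adjusted p were Hsp90b1 (-0.98 ± 0.19), Pdia6 (-0.84 ± 0.18), Calr (-0.92 ± 0.23) and Pdia4 (-1.72 ± 0.42). Hsp90b1, the Hsp90 of the endoplasmic reticulum, went from 289 ± 37 (SD, n = 4) to 149 ± 38 (SD, n = 4). Of the 23, only Calr, Pdia3, Pdia4 and Pdia6 also passed for the colitis effect with ligation minus that without (6.02% of all genes passed). Their differences were -1.46 ± 0.32, -1.11 ± 0.28, -2.11 ± 0.60 and -1.08 ± 0.25 (adjusted p = 0.0101, 0.0203, 0.0374 and 0.0137, limma). The DSS effect on Hsp90b1 was higher in KC than in Mo by 1.41 ± 0.33 (adjusted p = 0.0369, limma). Atf4 and Xbp1, transcription factors of the unfolded protein response that were picked after the values were seen, differed by 0.76 ± 0.40 and -0.44 ± 0.52 between DSS and Sham6w (adjusted p = 0.262 and 0.66, limma). Cycling cell markers were higher in the same libraries: their summed share was 0.0414% to 0.0497% in KC DSS, 0.00402% to 0.0207% in Sham6w and 0.00862% to 0.0154% in CBDL+DSS. Genes of the mitochondrial genome held 3.49% to 5.2% in KC DSS, 6.46% to 9.0% in Sham6w and 4.55% to 5.75% in CBDL+DSS. Kupffer cell markers held 0.718% to 0.883%, 1.01% to 1.1% and 0.656% to 0.832% in the same order. The part of these shares in the result was not tested.

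**Figure D4:**
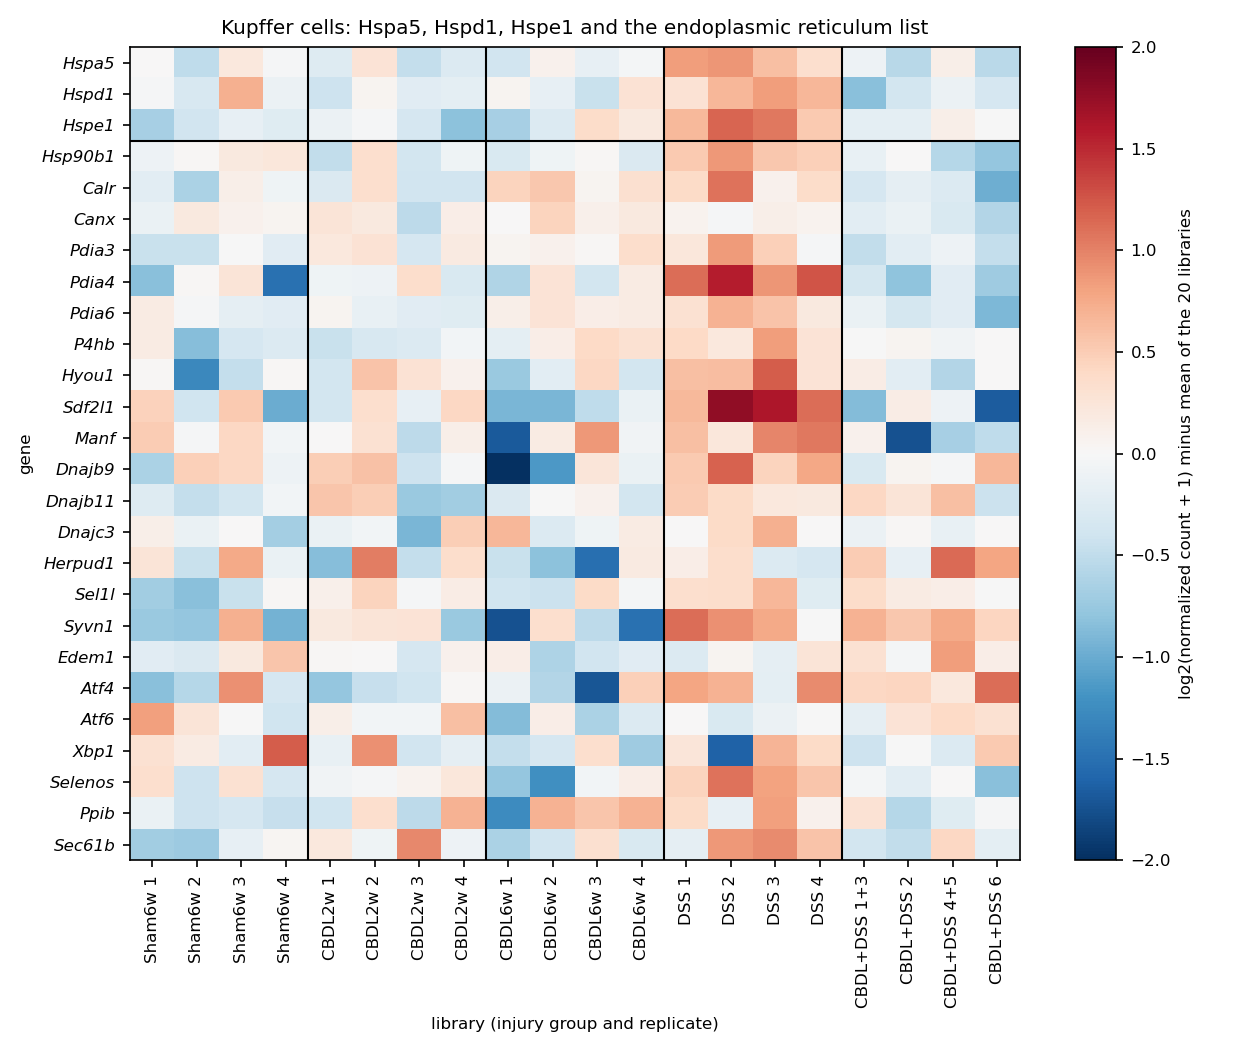
Log2 of the normalized count plus 1 in KC, as the difference from the gene's mean over the 20 KC libraries (colour, blue below and red above), for Hspa5, Hspd1, Hspe1 and the 23 tested genes of the endoplasmic reticulum list (y axis) in each library (x axis: injury group and replicate). Hspa5 and Hspe1 are above their means in all 4 DSS libraries.

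In MoMF and Mo, calls of the organelle members came from CBDL+DSS. Hspd1 in MoMF read 44.6, 50.0 and 36.3 in Sham6w, 45.9, 41.0, 49.2 and 33.0 in DSS, and 11.0, 23.0, 31.7 and 20.9 in CBDL+DSS. CBDL+DSS lay below both. Hspd1 fell by 1.05 ± 0.33 against Sham6w (adjusted p = 0.0427, limma) and by 1.01 ± 0.30 against DSS (adjusted p = 0.0377, limma). The fall against Sham6w was lost without any of 5 libraries (MoMF CBDL+DSS 1, 2 and 4+5, Sham6w 1+2+5 and 3, adjusted p from 0.0607 to 0.136). The fall against DSS was lost without any of 6 (CBDL+DSS 1, 2 and 4+5, DSS 1, 2 and 3, adjusted p from 0.0576 to 0.15). Both were lost with no filter on low values and with single replicate numbers only. The fall against Sham6w was also lost with edgeR and with the replicate number as a block.

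Hspe1 in MoMF read 75.9, 79.8, 97.4 and 128 in DSS and 29.4, 44.3, 60.3 and 56.9 in CBDL+DSS, without overlap. It fell by 1.00 ± 0.28 (adjusted p = 0.0272, limma), but not without CBDL+DSS 1 (0.109) or 2 (0.0617), or DSS 3 (0.0624) or 5+6 (0.0921), nor with no filter on low values. In Mo, Hspe1 fell in CBDL+DSS against Sham6w by 0.91 ± 0.30 (adjusted p = 0.0471, limma). This fall was lost without Mo CBDL+DSS 1 or 2 or any of the 3 Sham6w libraries (0.0526 to 0.152). It was also lost with no filter, with edgeR, with the replicate number as a block, and with single replicate numbers only. Against DSS, Mo Hspe1 passed only without DSS 2 (-1.0, adjusted p = 0.0494, limma), and Hspd1 in Mo CBDL2w only without Sham6w 1+2+5 (-1.25, adjusted p = 0.0415, limma). Hspa5 did not pass in either cell type. It passed in Mo for CBDL2w without replicate 2 (-0.75, adjusted p = 0.0423, limma) and for CBDL6w without replicate 4 (-0.72, adjusted p = 0.0473, limma).

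Counts of members past the threshold were set beside the share of all tested genes past it, in either direction. In KC, 2 of 10 passed for DSS against Sham6w, both higher (7.89% of all genes), 4 of 10 for CBDL+DSS against DSS, all lower (7.44%), and 1 of 10 for the colitis effect with and without ligation (6.02%). None passed for CBDL2w (2.71%), CBDL6w (3.25%) or CBDL+DSS (3.31%) against Sham6w, nor for CBDL+DSS against CBDL6w (1.74%), with 2, 3, 0 and 4 members at an unadjusted p under 0.05 and 0 by edgeR and DESeq2. The KC counts changed when single libraries were left out. DSS against Sham6w had 1 member without KC DSS 1 or 2 or KC Sham6w 2. CBDL6w against Sham6w had 1 member, Hspa1a, without KC CBDL6w replicate 1, and CBDL+DSS against DSS had 2 without KC CBDL+DSS replicate 2 or KC DSS replicate 2. The colitis effect had 4 members without KC CBDL6w 1 or KC DSS 4, 2 without KC CBDL+DSS 4+5 or KC Sham6w 3, and 0 without any of the 10 libraries named above for Hspe1.

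In MoMF, 2 of 10 passed in CBDL2w (3.06% of all genes), 2 in CBDL6w (1.22%) and 3 in CBDL+DSS (9.8%) against Sham6w, and 4 for CBDL+DSS against DSS (9.2%), all of them lower. The count of 4 became 2 without CBDL+DSS 1 or 2 or DSS 3. The median member difference was -0.81, -0.53, -0.84 and -0.98, against 0.028, 0.021, 0.08 and 0.004 over all genes. None passed for DSS against Sham6w (2.07%), CBDL+DSS against CBDL6w (4.16%) or the colitis effect with and without ligation (2.09%), with 0, 2 and 0 at an unadjusted p under 0.05 and 0 by edgeR and DESeq2.

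In Mo, 5 of 10 passed in CBDL2w (13.8% of all genes), 3 in CBDL6w (11.2%) and 6 in CBDL+DSS (13.1%) against Sham6w, and 3 for CBDL+DSS against DSS (5.81%), all of them lower. The median member difference was -1.04, -0.86, -1.0 and -0.77, against -0.096, -0.11, -0.069 and -0.007. None passed for DSS against Sham6w (1.59%), where limma gave 3 at an unadjusted p under 0.05, edgeR 0 and DESeq2 1. None passed for CBDL+DSS against CBDL6w (0.573%), with 1 at an unadjusted p under 0.05, or for the colitis effect (0.311%), with 0, and none by edgeR or DESeq2. The count of 3 for CBDL+DSS against DSS became 1 without Mo CBDL+DSS 2 or 4+5 or Mo DSS 1, 3 or 4, 2 without Mo CBDL+DSS 1 or 6, and 5 without Mo DSS 2. CBDL2w against CBDL6w called no member in any cell type, with 0 in KC, 1 in MoMF and 2 in Mo at an unadjusted p under 0.05 and none by edgeR or DESeq2, and called 0.0% of all genes in KC and Mo and 0.0823% in MoMF.

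Cell types were compared within each group of mice. In Sham6w, Hsp90aa1 was lower in KC than in MoMF and Mo, and in CBDL+DSS both Hsp90 genes were lower in Mo than in KC. Of the inducible Hsp70 pair, Hspa1b was lower in KC than in MoMF in Sham6w, CBDL6w and DSS, and Hspa1a in CBDL6w and DSS. Hspd1 was lower in Mo than in both macrophage types in DSS.

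**Figure D5:**
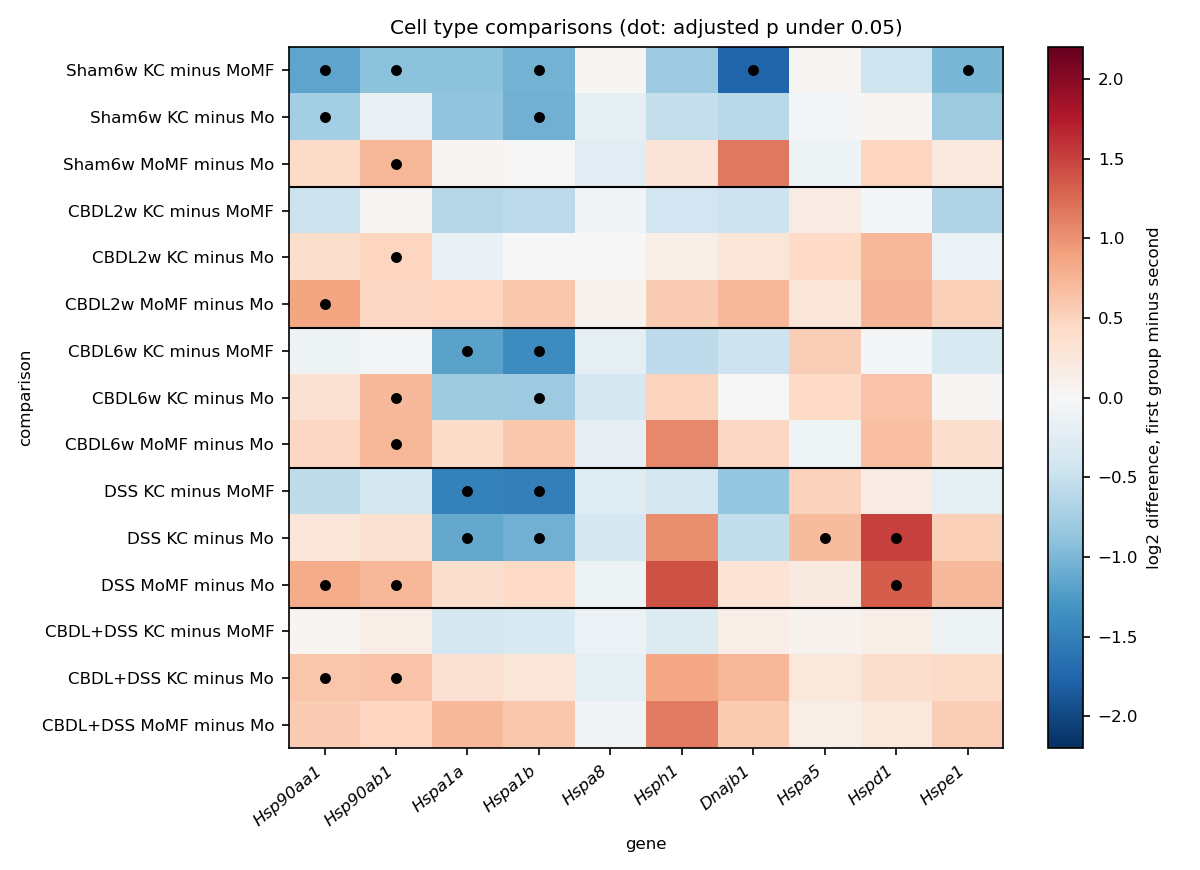
Log2 differences of the 10 members (x axis) between cell types in each injury group (y axis), in colour from blue (lower in the first cell type) to red (higher); a dot marks an adjusted p under 0.05. Dots on Hspa1a and Hspa1b are all on differences lower in KC, and dots between MoMF and Mo are all on differences higher in MoMF.

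In Sham6w, 5 of 10 members were lower in KC than in MoMF (15.9% of all genes passed): Hsp90aa1 (-1.16 ± 0.23), Hsp90ab1 (-0.90 ± 0.18), Hspa1b (-1.04 ± 0.30), Dnajb1 (-1.77 ± 0.47) and Hspe1 (-1.01 ± 0.29). Dnajb1 read 19.2, 23.0, 40.7 and 14.1 in KC and 104, 77.1 and 61.9 in MoMF. Without MoMF Sham6w 1+2+5, Dnajb1 (adjusted p = 0.0521, limma) and Hspa1b (0.0656) were lost and the count was 3, and without Sham6w replicate 3 of MoMF Hspe1 was lost (0.133). Against Mo, 2 of 10 were lower in KC (16.0% of all genes): Hspa1b (-1.05 ± 0.30) and Hsp90aa1 (-0.74 ± 0.23). Hsp90aa1 was lost without KC Sham6w 2 (0.0922) or 4 (0.0513), or Mo Sham6w 1+2+5 (0.105) or 3+6 (0.128). Between MoMF and Mo, 1 of 10 differed (6.15%): Hsp90ab1 was higher in MoMF by 0.73 ± 0.19, but not without Mo Sham6w 4 (0.103) or MoMF Sham6w 1+2+5 (0.131). With single replicate numbers only, which leaves 1 Sham6w library in MoMF and in Mo, 1 of the 5 calls against MoMF, Hspe1, and none of the other 3 passed.

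In CBDL2w no member differed between KC and MoMF (6.63% of all genes), with 3 at an unadjusted p under 0.05 and 0 by edgeR and DESeq2. Hsp90ab1 was higher in KC than in Mo by 0.48 ± 0.17 (1 of 10 against 14.4%; adjusted p = 0.0412, limma), and lost without KC replicates 1, 2 or 3 or Mo replicates 3 or 4 (0.0549 to 0.183). Hsp90aa1 was higher in MoMF than in Mo by 0.86 ± 0.21 (1 of 10 against 2.01%), and lost without Mo replicate 2 (0.0635) or 4 (0.127) or MoMF replicate 3 (0.109).

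In CBDL6w, Hspa1a and Hspa1b were lower in KC than in MoMF (2 of 10 against 9.66%). Their summed count was 394, 169, 159 and 219 in KC and 938, 531, 422 and 411 in MoMF, where replicate 1 was the highest in both. Hspa1b differed by -1.38 ± 0.28 (adjusted p = 0.000378, limma), under all settings and without each library. Hspa1a differed by -1.18 ± 0.32, and was lost without KC replicate 2 (0.0506) or 3 (0.0614) or MoMF replicate 1 (0.0897). Between KC and Mo 2 of 10 differed (15.3%). Hsp90ab1 was higher in KC by 0.71 ± 0.17, and Hspa1b was lower in KC by 0.80 on the log2 scale (-0.80 ± 0.28, adjusted p = 0.0425, limma), the latter lost without KC replicates 2, 3 or 4 or Mo replicates 1, 3 or 4 (0.0717 to 0.138). Hsp90ab1 was higher in MoMF than in Mo by 0.73 ± 0.17 (1 of 10 against 2.16%).

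In DSS, Hspa1a and Hspa1b were lower in KC than in MoMF (2 of 10 against 13.5%), at -1.49 ± 0.32 (adjusted p = 0.000482, limma) and -1.5 ± 0.28 (adjusted p = 7.45e-05, limma). Both held under all settings and without each library, although the widely spread DSS libraries overlapped for Hspa1a. Against Mo, 4 of 10 differed (14.7%): Hspa1a (-1.12 ± 0.32) and Hspa1b (-1.06 ± 0.28) were lower in KC, and Hspa5 (0.69 ± 0.22) and Hspd1 (1.5 ± 0.29) were higher. Without KC DSS replicate 1 or Mo DSS replicate 4 only Hspd1 of these 4 was left, with adjusted p from 0.0514 to 0.0887 for the other 3. Hspa5 was also lost without KC DSS 2 (0.0927) or Mo DSS 1 (0.0779).

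Hspd1 in Mo DSS read 16.3, 12.9, 19.7 and 15.6, below every KC DSS library (37.5 or more) and every MoMF DSS library (33.0 or more). Between MoMF and Mo in DSS, 3 of 10 were higher in MoMF (2.32%): Hspd1 by 1.34 ± 0.29 (adjusted p = 0.00263, limma), Hsp90ab1 by 0.73 ± 0.17 (adjusted p = 0.00551, limma) and Hsp90aa1 by 0.82 ± 0.21 (adjusted p = 0.0202, limma). The last was lost without Mo DSS 1 (0.0512) or 2 (0.18) or MoMF DSS 3 (0.115) or 5+6 (0.0759).

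In CBDL+DSS no member differed between KC and MoMF (4.88%) or between MoMF and Mo (4.29%), with 0 and 6 members at an unadjusted p under 0.05 and 0 by edgeR and DESeq2. Against Mo, Hsp90ab1 (0.63 ± 0.17, adjusted p = 0.00552, limma) and Hsp90aa1 (0.61 ± 0.21, adjusted p = 0.0471, limma) were higher in KC (2 of 10 against 14.4%). Hsp90aa1 was lost without any 1 of the 8 libraries of the 2 groups (0.0597 to 0.123).

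Other genes of the same machinery were counted from 3 further lists. Of 32 cytosolic co-chaperones and HSF1 targets, 21 were tested in KC, 22 in MoMF and 23 in Mo, and 2 or 3 fell in each comparison of a ligated group with Sham6w. The share of all genes that passed in CBDL2w, CBDL6w and CBDL+DSS was 2.71%, 3.25% and 3.31% in KC, 3.06%, 1.22% and 9.8% in MoMF, and 13.8%, 11.2% and 13.1% in Mo. In Mo the 3, 2 and 3 of 23 that passed in either direction were thus near the share of all genes, and nothing particular to the list is read from those counts. Dnaja1, a J-domain helper of the cytosol, fell in all 3 ligated groups in MoMF (-1.48, -1.26 and -1.59) and in Mo (-1.17, -1.11 and -1.26), and in KC in CBDL2w (-1.13) and CBDL6w (-1.19). A single gene of the list rose, Sugt1 in Mo CBDL2w (1.31 ± 0.30), a partner of Hsp90. The list's median difference in the ligated groups was -0.37, -0.34 and -0.26 in KC, -0.46, -0.39 and -0.26 in MoMF, and -0.21, -0.58 and -0.52 in Mo, for CBDL2w, CBDL6w and CBDL+DSS in that order. The median over all genes in those comparisons lay between -0.11 and 0.08.

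For CBDL+DSS against DSS, 3 of 21 cytosolic genes fell in KC (7.44% of all genes passed), 5 of 22 fell and 1 rose in MoMF (9.2%), and 2 of 23 fell in Mo (5.81%). Among them Stip1, which links Hsp70 to Hsp90, fell in MoMF (-2.26 ± 0.66), and Chordc1 fell in MoMF (-1.48 ± 0.40) and in Mo (-1.54 ± 0.42). In Mo, Hsp90b1 of the endoplasmic reticulum list also fell with ligation (-1.26, -0.98 and -1.35 against Sham6w).

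Of 14 mitochondrial chaperones and proteases, 6 to 8 were tested per cell type. The calls between injuries were in KC. Spg7, a protease subunit, fell in CBDL6w (-1.33 ± 0.33) and DSS (-1.59 ± 0.33) against Sham6w. Hspa9, the mitochondrial Hsp70, fell from DSS to CBDL+DSS (-1.06 ± 0.29). The shares of all genes that passed in these comparisons were 3.25%, 7.89% and 7.44%. In KC DSS against Sham6w the median of this list was -0.85, against -0.066 over all genes, while Hspe1 rose. Of 14 genes of the TRiC chaperonin and prefoldin, which fold actin and tubulin, 12 to 14 were tested. The 1 call between injuries was Cct8, which fell from DSS to CBDL+DSS in KC (-1.17 ± 0.30), where 7.44% of all genes passed. Nothing particular to either list is read from these calls.

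Immediate early genes, which respond to cell handling as well as to stimulation, were counted from a list of 30. In Sham6w, 14 of 30 were lower in KC than in MoMF and none higher (15.9% of all genes passed, median -0.95 against 0.144 over all genes), and 20 of 30 were lower in KC than in Mo (16.0%, median -1.52 against -0.01). In DSS, 18 of 30 were lower in KC than in MoMF and 1 was higher (13.5%). In KC against Sham6w, none of 28 passed in CBDL2w with limma (2.71%; 6 at an unadjusted p under 0.05, 0 by edgeR and 1 by DESeq2), 5 fell in CBDL6w (3.25%), 1 fell in DSS (7.89%) and 2 rose in CBDL+DSS (3.31%). Also in KC, 6 of 28 rose from CBDL6w to CBDL+DSS (1.74%), and 5 had a higher colitis effect with ligation than without (6.02%). Against Sham6w in MoMF, 3 of 29 rose in CBDL2w (3.06%), 1 fell in CBDL6w (1.22%), and 3 rose and 3 fell in CBDL+DSS (9.8%). In Mo, 1 of 30 rose and 3 fell in CBDL2w (13.8%), 8 fell in CBDL6w (11.2%), and 4 rose and 2 fell in CBDL+DSS (13.1%). From DSS to CBDL+DSS, none of 28 passed in KC with limma (7.44%; 9 at an unadjusted p under 0.05, 2 by edgeR and 3 by DESeq2), 3 rose and 5 fell in MoMF (9.2%), and 2 rose and 1 fell in Mo (5.81%). The part of cell handling in the member differences was not tested.

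The members varied together to different degrees. Over all 58 libraries, within groups, Hspa1a and Hspa1b had a Pearson correlation of 0.90, Hsp90aa1 and Hsp90ab1 of 0.71, and Hsp90aa1 and Hspa1a of 0.76. These describe libraries that share depth and handling. Genes outside the 10 most like the mean of the members, by correlation of log2 values over the 58 libraries, were Gm12346 (0.89), Gm5844 (0.87), Dnaja1 (0.79), Gm15542 (0.74) and Gm6368 (0.74). Gm12346 and Gm5844 carry Hsp90aa1 sequence: 75.4% and 55.6% of their 50-base words occur in Hsp90aa1, so their counts may not be separate. Most like Hspa5 were Pdia6 (0.68), Hsp90b1 (0.67), Pdia3 (0.65), Tgtp2 (0.65) and Pla2g16 (0.63). Most like Hspd1 were St13 (0.71), Hspd1-ps3, Nucks1 and Tuba1b (0.67 each) and Cd300ld (0.66), and Hspd1-ps3 shares 60.7% of its words with Hspd1. Most like Dnajb1 were Gm12346 (0.65), Gm5844, Gm7198 and Txk (0.64 each) and Herpud1 (0.63). Gm6368 and Gm7198 share 2.0% and 2.44% of their 50-base words with Hsp90ab1, so their counts may not be fully separate either. Gm6368 is also the gene that holds 7.8% of the words in the last 500 bases of the Hsp90ab1 transcript.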

How the data were processed

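The 58 libraries were made with a QuantSeq 3′ FWD kit carrying molecular identifiers, per the labels' protocols. Build GRCm38.p6, RSEM 1.3.1, STAR 2.7.5b, DESeq2, Trimmomatic (0.39 and 0.39-1) and UMI-tools 1.0.1 appear in the submitters' processing notes; the sources used here do not give their roles, the annotation or the counting strand. The deposited normalized count signal of 25307 genes came out as whole reads times 1 factor per library (100.0% of values within 0.01; size factors 0.4038 to 1.6754), giving 118687 to 521954 reads per library; 25242 gene IDs were matched to GENCODE M21 names and 65 were not. No columns were identical, and chi-square per degree of freedom between replicates was 2.81 or more, so each library counted as 1 replicate.

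Log2(normalized count + 1) was tested with limma 3.58.1 (R 4.3.3, trend and robust), 1 fit per cell type for injuries and 1 over all libraries for cell types and differences of effects, on genes of at least 10 in at least 3 libraries, with Benjamini-Hochberg adjustment over all genes. Scripts were tested on simulated data. Alternatives were DESeq2 1.42.0 or edgeR 4.0.16 run on recovered reads, a pseudocount of 5, equal totals, no filter, a replicate block, single replicate numbers only, and leaving out each library. The comparison of CBDL+DSS with DSS was added after seeing the data. The members and lists were chosen with earlier results of these data known. All members are named; of each list up to 4 called genes per comparison, by smallest adjusted p, and the 5 genes most like the members' mean, Hspa5, Hspd1 and Dnajb1. Promoters come from RefSeq.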

Additional observations from a re-analysis of the deposited data

Results flagged for a closer look

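In 6 of the 130 sets of 1 gene in a group of 4 libraries, 1 library stood far from the others by Dixon's test at the 95% level; chance gives about 1 in 20. Hsp90aa1 was 798.3 in KC CBDL6w replicate 1, against 429, 456 and 479. Hspa5 was 446.8 in Mo CBDL6w replicate 4, against 266, 267 and 268. Hsph1 was 20.2 in KC CBDL+DSS 4+5, against 8.36, 9.55 and 9.97. Dnajb1 was 18.26 in MoMF CBDL2w replicate 1 (others 31.9, 32.1 and 33.3), 20.85 in MoMF CBDL+DSS 4+5 (others 31.9, 32.2 and 33.2) and 31.63 in Mo CBDL+DSS replicate 6 (others 15.3, 16.2 and 16.8).

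In 6 cases a test of the difference between effects passed (limma, adjusted over all genes). The effect of colitis on Hspe1 in KC was smaller with ligation, at -1.19. The effect of CBDL+DSS on Hsp90aa1 was higher in KC than in MoMF by 1.21 and than in Mo by 1.35, and that on Hsp90ab1 higher in KC than in MoMF by 1.05. The effect of CBDL2w on Hsp90aa1 was higher in KC than in Mo by 1.12, and that of CBDL6w on Hsp90ab1 by 0.88. All 6 were lost when some single library was left out.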

How the results depend on the processing

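Of 66 calls, 13 held under every setting, 34 without each library, and 0 changed direction. Calls lost were 0 with a pseudocount of 5, 1 with DESeq2, 1 with equal totals, 7 with edgeR, 16 with no filter and 41 with single replicate numbers only, which leaves 1 Sham6w library in MoMF and in Mo. As a share of the library total, all 150 group levels moved by less than 1 SD. The causes of the changes below were not tested, beyond the smaller number of libraries.

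DESeq2 changed the number of members from 1 to 2 for the KC colitis effect with and without ligation, 0 to 1 for Mo DSS against Sham6w, 3 to 5 for Mo CBDL+DSS against DSS, and 2 to 1 for CBDL6w KC against Mo; for effects between KC and Mo it gave 2 for CBDL6w (from 1) and 2 for DSS (from 0), and 11 in all for differences of effects (from 6). edgeR gave 0 for CBDL2w KC against Mo (from 1), 1 for CBDL+DSS KC against Mo (from 2), and 0 for the CBDL2w and CBDL6w effects between KC and Mo (from 1 each). Equal totals gave 2 for the KC colitis effect, 4 for Sham6w KC against Mo (from 2), 1 for CBDL+DSS KC against Mo, 1 for the CBDL2w effect between KC and MoMF (from 0) and 2 for the CBDL6w effect between KC and Mo. A pseudocount of 5 gave 2 for the KC colitis effect and 2 for the CBDL6w effect between KC and Mo. No filter gave 1 for KC CBDL+DSS against DSS (from 4), 0 for the KC colitis effect, 2 for MoMF CBDL+DSS against DSS (from 4), 0 for CBDL2w KC against Mo, 1 each for CBDL6w and CBDL+DSS KC against Mo, 0 for the CBDL2w and CBDL6w effects between KC and Mo, and 3 of 6 differences of effects in all.

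Single replicate numbers kept 5 of 23 injury calls, 15 of 26 cell type calls and 0 of 6 differences of effects, and 1 other difference passed, for the KC colitis effect. They gave 1 for KC CBDL+DSS against DSS, 1 for MoMF CBDL2w (from 2), 0 for CBDL6w (from 2) and 1 for CBDL+DSS (from 3) against Sham6w, 1 for Mo CBDL2w (from 5), 0 for CBDL6w (from 3) and 0 for CBDL+DSS (from 6) against Sham6w, and 1 for Mo CBDL+DSS against DSS. In Sham6w they gave 1 for KC against MoMF (from 5), 0 for KC against Mo and 0 for MoMF against Mo, with 1 for CBDL6w and 0 for CBDL+DSS KC against Mo, and 0 for each called effect between cell types.

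The main tests did not pair libraries by replicate number. Within a cell type, deviations of same-numbered libraries correlated between -0.06 and 0.07 (18 pairs of groups). There, 12 of 55 libraries correlated best with their own number. Within an injury they correlated between -0.06 and 0.1 (12 pairs), but 28 of 40 libraries correlated best with their own number. Same-numbered libraries of different cell types may thus be linked, and the main cell type tests treated them as separate. A block was set as the number in each cell type's fit, and as injury group with number in the fit over all libraries. Pooled Sham6w numbers occur in no other group of a cell type. The block thus takes up those controls and leaves 1 in MoMF and in Mo. With the replicate number as a block, 39 of the 66 calls were lost, 3 of 23 injury calls and 0 of 6 differences of effects were kept, and counts were 0 for KC CBDL+DSS against DSS, the KC colitis effect, MoMF CBDL2w and CBDL6w and all 3 ligated Mo groups against Sham6w, 1 for MoMF CBDL+DSS against Sham6w and for Mo CBDL+DSS against DSS, 1 for Sham6w KC against MoMF, 0 for Sham6w MoMF against Mo, 2 for CBDL2w KC against MoMF (from 0) and against Mo (from 1), 5 for CBDL6w KC against Mo (from 2), 1 for CBDL+DSS KC against Mo, 0 for the 4 called comparisons of effects and 1 for the effect of CBDL+DSS over CBDL6w between KC and MoMF (from 0), the 1 difference of effects that passed.

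Leaving out 1 library at a time gave 0 to 1 for KC CBDL6w and 1 to 2 for KC DSS against Sham6w, 2 to 4 for KC and for MoMF CBDL+DSS against DSS, 0 to 4 for the KC colitis effect, 0 to 1 for Mo DSS against Sham6w and 1 to 5 for Mo CBDL+DSS against DSS. In Sham6w it gave 3 to 6 for KC against MoMF, 1 to 3 for KC against Mo and 0 to 1 for MoMF against Mo. It gave 0 to 1 for CBDL2w KC against Mo and MoMF against Mo, 1 to 2 for CBDL6w KC against MoMF, 1 to 3 for CBDL6w KC against Mo, 1 to 4 for DSS KC against Mo and 1 for CBDL+DSS KC against Mo. For effects it gave 0 to 1 between KC and MoMF for CBDL2w and CBDL6w, 0 to 2 for CBDL+DSS, and 0 to 2 between KC and Mo for CBDL2w, CBDL6w and CBDL+DSS. Hsph1, Dnajb1 and Hspd1 had the lowest counts of the members; the part of depth in their calls was not tested.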
